A study of Homo sapiens with 4 samples.

Results

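The genes described are 10 C-type lectin receptors of myeloid cells, CLEC4A, CLEC4C, CLEC4D, CLEC4E, CLEC5A, CLEC6A, CLEC7A, CLEC10A, CLEC12A and CLEC12B, out of 18417 genes with a probe set of their own on the array. The group was selected on the difference of CLEC4A between ZFX hairpins and controls on these same arrays, so the values of that contrast are given as a description and carry no test. Each gene was found by its symbol in the platform annotation and had 1 probe set under that symbol alone. All cells were NOMO-1, a monocytic line from human acute myeloid leukaemia. The ZFX knock-down group held 2 arrays, 1 from cells with the hairpin virus ZFX-SH3 and 1 from cells with ZFX-SH1. Controls had 2 arrays, 1 for a scrambled hairpin (SCR) and 1 for a virus that carries GFP (LEN-GFP), both labelled as wild type for ZFX. All cultures were infected with lentivirus at a multiplicity of infection of 1, selected, and harvested 48 h after selection. No array repeats a construct, so the spread within a group joins construct and array, and the labels do not say whether the cultures were separate experiments.

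C-type lectin receptors are surface proteins that bind sugars and other ligands of microbes and damaged cells through a lectin-like domain. Activating members carry a tyrosine motif of their own or borrow one from the adaptors FCER1G or TYROBP, which brings in the kinase SYK and then the scaffold of CARD9, BCL10 and MALT1. Inhibitory members carry an inhibitory tyrosine motif that recruits the phosphatases PTPN6 and PTPN11. Monocytes, macrophages, dendritic cells and neutrophils use both kinds, and CLEC12A is also known as a surface antigen of myeloid leukaemia cells.

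The knock-down was partial. ZFX had a log2 intensity of 10.12 on SH3 and 10.13 on SH1, against 10.66 on SCR and 10.65 on LEN-GFP, which is 69.3% of the control level (log2 -0.53, SE 0.10, limma adjusted p = 0.797). Of 12 monocyte markers 10 could be measured, and 0 of these lay among the dimmest 30% of genes. LYZ, which encodes lysozyme, was at 14.20 on SH3 and 14.32 on SH1, and at 14.37 on SCR and 14.28 on LEN-GFP. CD14, the lipopolysaccharide co-receptor, lay closer to the dim end, at 7.62 on SH3 and 7.27 on SH1, and at 7.37 on SCR and 7.35 on LEN-GFP, where the dimmest 30% of genes ended at 6.70. Other monocyte markers moved more. CSF1R and FCN1 had both hairpins above both controls, with log2 differences of 0.58 and 0.50, and VCAN had both below (-0.14). Over all genes outside the dimmest 30%, 18.2% lay above and 19.0% below. The median difference of the 10 markers was 0.03. Of 9 measured markers of lymphoid cells, 5 lay in that dimmest range. Fewer cells that express a gene and less RNA per cell cannot be told apart in such bulk samples.

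Among the 10 receptors, 6 were bright enough to be tested with the 12892 genes above that limit, CLEC4A, CLEC4C, CLEC5A, CLEC7A, CLEC12A and CLEC12B. CLEC4D, CLEC4E, CLEC6A and CLEC10A were among the dim genes, and with no detection call in the values used here their expression cannot be told from background. On all 10 receptors, both hairpin arrays lay above both controls for 4 (CLEC4A, CLEC4C, CLEC4E and CLEC7A) and below both for 1 (CLEC10A). Over all 18417 genes these shares were 17.4% above and 18.6% below, and since this contrast chose the receptors nothing is read from the count. The median difference of the 10 receptors, hairpins minus controls, was 0.04 on the log2 scale, beside -0.00292 over all tested genes. limma called 0% of the 12892 genes in this contrast, with a smallest adjusted p of 0.797, and 779 genes had an unadjusted p under 0.05. It called 1698 genes without the SH1 array, 54 without the SH3 array and 0 without either control.

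**Figure D1:**
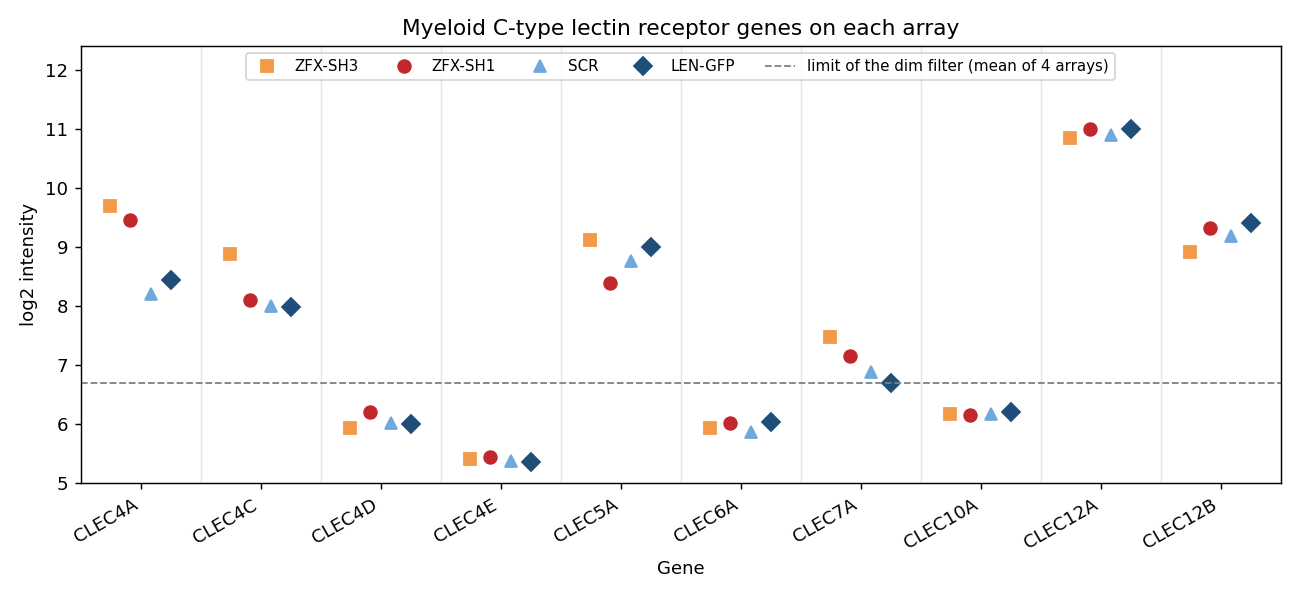
log2 intensity (y axis) of the 10 receptor genes (x axis) on the 2 ZFX hairpin arrays (SH3, SH1) and the 2 control arrays (SCR, LEN-GFP), 1 point per array, with the limit of 6.70 below which a gene's mean over the 4 arrays was left out of testing as a dashed line. CLEC4A is the gene whose hairpin and control points are farthest apart, CLEC12A lies near 11 on all 4 arrays, and 4 genes lie below the line.

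CLEC4A had the largest difference of the 10 receptors. It encodes DCIR, an inhibitory receptor of dendritic cells and monocytes that binds sugars and signals through an inhibitory tyrosine motif. Its log2 intensity was 9.69 on SH3 and 9.46 on SH1, against 8.20 on SCR and 8.44 on LEN-GFP. On the linear scale these are intensities of 824 and 703 on the hairpin arrays and 294 and 347 on the controls. Both hairpins were high and the groups were apart by a gap of 1.02. The mean difference was 1.25 (SE 0.15, 2 against 2 arrays), a 2.38-fold higher level with the hairpins. SH3 alone stood at 2.58-fold and SH1 alone at 2.20-fold the mean of the controls.

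The other inhibitory receptors did not share this pattern. CLEC12A, which encodes a receptor of myeloid cells for uric acid crystals known as MICL or CLL-1, had 10.84 on SH3 and 11.00 on SH1, against 10.89 on SCR and 10.99 on LEN-GFP. All 4 values lay within 0.16 of each other, the groups overlapped, and the mean difference was -0.02 (SE 0.11). CLEC12B, a related inhibitory receptor, had 8.91 on SH3 and 9.33 on SH1, against 9.19 on SCR and 9.40 on LEN-GFP. SH3 was the lowest and SH1 lay between the controls, with a mean difference of -0.17 (SE 0.18).

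CLEC7A, or Dectin-1, is the receptor for fungal beta-glucan and signals through a tyrosine motif in its own tail. It had 7.47 on SH3 and 7.15 on SH1, against 6.89 on SCR and 6.71 on LEN-GFP. Both hairpins lay above both controls, by a gap of 0.26, and the mean difference was 0.51 (SE 0.14), or 1.42-fold. The value on LEN-GFP lies at the dim limit of 6.70.

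CLEC4C, or BDCA-2, marks plasmacytoid dendritic cells and signals through FCER1G. Its intensity on the linear scale was 474 on SH3 and 274 on SH1, against 257 on SCR and 252 on LEN-GFP. SH3 stood high alone, at 1.86-fold the mean of the controls, while SH1 was at 1.08-fold and cleared the higher control by 0.09 on the log2 scale. The mean log2 difference was 0.50 (SE 0.27).

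CLEC5A, or MDL-1, couples to TYROBP and takes part in the response to flaviviruses. Its linear intensity was 553 on SH3 and 336 on SH1, against 433 on SCR and 513 on LEN-GFP. SH3 was the highest and SH1 the lowest of the 4 arrays, at 1.17-fold and 71.3% of the mean of the controls, and the mean log2 difference was -0.13 (SE 0.26).

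The 4 dim receptors varied little. CLEC4D and CLEC4E (Mincle), which sense mycobacterial cord factor, had ranges over the 4 arrays of 0.26 and 0.09 on the log2 scale. CLEC6A, or Dectin-2, which binds fungal mannans, had a range of 0.18, and CLEC10A, a receptor for galactose-type sugars, of 0.05. Their differences lay between -0.03 and 0.06. CLEC4E, with 5.41 on SH3 and 5.46 on SH1 against 5.38 on SCR and 5.36 on LEN-GFP, shows how small a difference can separate the groups without overlap.

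The difference between the hairpins is a separate contrast that the choice by symbol and by CLEC4A did not use, and it was tested with limma over all 12892 genes. The lone arrays were assumed to vary like the control pair, which gave the only residual degree of freedom. limma added 7.85 prior degrees of freedom from the spread over all tested genes, so the SEs and p-values rest mostly on that shared spread. In this fit 8.49% of genes were called, 4.01% higher and 4.48% lower with SH3 than with SH1. Of the 6 tested receptors, 2 were called, both higher with SH3. CLEC4C was 1.73-fold higher on SH3 (8.89) than on SH1 (8.10), a log2 difference of 0.79 (SE 0.16, limma adjusted p = 0.0207). CLEC5A was 1.64-fold higher on SH3 (9.11) than on SH1 (8.39), a difference of 0.72 (SE 0.18, limma adjusted p = 0.0453). The CLEC5A call was lost with each array centred on its median (adjusted p = 0.0830) and with no filter on dim genes (0.0720).

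The other 4 tested receptors did not pass. SH3 minus SH1 was 0.23 for CLEC4A (SE 0.18, limma adjusted p = 0.551) and 0.32 for CLEC7A (SE 0.15, adjusted p = 0.254). It was -0.16 for CLEC12A (SE 0.13, adjusted p = 0.560) and -0.41 for CLEC12B (SE 0.17, adjusted p = 0.202). A p above the threshold does not show that the hairpins acted alike on these genes. The controls were compared in the same way, with the hairpin pair giving the spread. That pair was the wider, with a median size of difference over all tested genes of 0.16, beside 0.105 between the controls. A wide hairpin pair lowers the number of calls in this fit, so an absence of calls does not show that the controls were alike. limma called 0% of genes between SCR and LEN-GFP, with 82 genes at an unadjusted p under 0.05. SCR minus LEN-GFP lay between -0.25 for CLEC5A and 0.19 for CLEC7A among the receptors, and was -0.24 for CLEC4A.

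**Figure D2:**
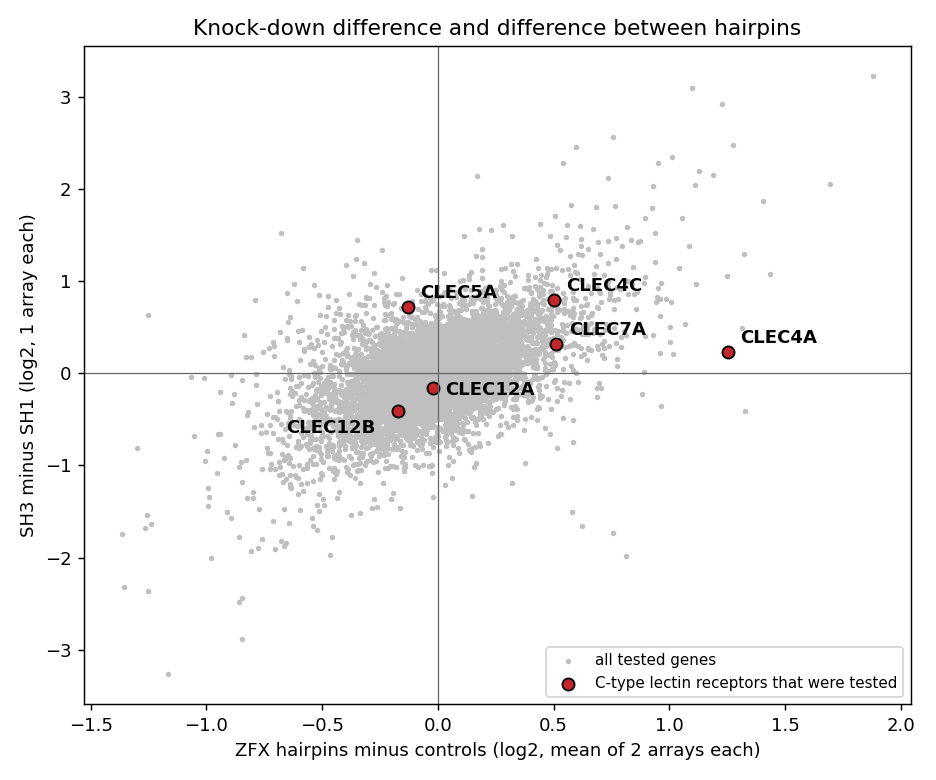
Each of the 12892 tested genes (grey) by its difference between ZFX hairpins and controls (x axis, log2) and its difference between SH3 and SH1 (y axis, log2), with the 6 tested receptors in red. CLEC4A lies far to the right at 1.25 with a hairpin difference of 0.23, while CLEC4C (0.79) and CLEC5A (0.72) stand above the other receptors.

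Promoter windows of 300 bases were matched by symbol in RefSeq (GRCh38.p14) for 6 of the 10 receptors, CLEC4C, CLEC4E, CLEC5A, CLEC6A, CLEC12A and CLEC12B. Those of CLEC4C and CLEC5A, the receptors that differed between hairpins, and of CLEC12A, the receptor with nearly level values, are shown 5′ to 3′ on the strand of the gene. Capitals mark GAGGAAG, a core of the sites of PU.1, the transcription factor of myeloid cells.

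CLEC4C, chr12:7747326-7747625, minus strand: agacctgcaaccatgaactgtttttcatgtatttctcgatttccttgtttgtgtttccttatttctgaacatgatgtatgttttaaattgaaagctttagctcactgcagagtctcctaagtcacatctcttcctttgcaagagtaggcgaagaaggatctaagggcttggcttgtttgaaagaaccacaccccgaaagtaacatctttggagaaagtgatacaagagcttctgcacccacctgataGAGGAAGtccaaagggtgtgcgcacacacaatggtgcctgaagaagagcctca
CLEC5A, chr7:141946925-141947224, minus strand: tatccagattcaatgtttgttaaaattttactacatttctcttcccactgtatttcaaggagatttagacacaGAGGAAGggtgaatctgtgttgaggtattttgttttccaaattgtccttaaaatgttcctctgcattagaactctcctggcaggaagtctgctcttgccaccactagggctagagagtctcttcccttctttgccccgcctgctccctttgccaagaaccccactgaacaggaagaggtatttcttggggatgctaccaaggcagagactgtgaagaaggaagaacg
CLEC12A, chr12:9971159-9971458, plus strand: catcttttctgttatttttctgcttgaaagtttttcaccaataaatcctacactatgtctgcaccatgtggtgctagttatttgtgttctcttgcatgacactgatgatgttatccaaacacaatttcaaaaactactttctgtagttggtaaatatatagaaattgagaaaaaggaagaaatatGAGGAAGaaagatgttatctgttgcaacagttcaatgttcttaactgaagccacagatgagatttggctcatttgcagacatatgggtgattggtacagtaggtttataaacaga

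All 3 windows hold GAGGAAG, and the other 3 receptor windows do not, while 13.6% of the 35116 RefSeq windows do. CLEC12A, which was not called between the hairpins, holds it as well as CLEC4C and CLEC5A. Whether the match bears on their levels was not tested. AGGCCT, the core of the known ZFX motif, was in 0 of the 6 windows and in 10.9% of all windows. CLEC4A, on which the group was selected, and CLEC4D, CLEC7A and CLEC10A had no window and were not searched. At that share, nothing is read from its absence in so few windows. On both strands, TTGCNNAA for C/EBP was in 1 window (CLEC4E, 10.5% of all) and GAAANNGAA for IRF factors in 1 (CLEC6A, 8.11%). GGGANTTCC for NF-kB was in 1 window (CLEC12B, 1.85%), and TGTGGT for RUNX factors in 2 (CLEC4C and CLEC12A, 13.1%). TGANTCA for AP-1 and TTCNNNGAA for STAT factors were in 0 of the 6 windows, against 7.71% and 7.66% of all. No match overlapped a match of another motif. These are matches of letters only.

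Markers of other cells were set beside these values. Beside CLEC4C stand the plasmacytoid dendritic cell markers, of which 0 of 7 tested were called between the hairpins. Over all tested genes 8.49% were called, so with so few markers nothing is read from this count. Of 9 markers 8 could be measured, 1 of them dim, and their summed intensity was 1644 on SH3 and 1702 on SH1, and 1585 on SCR and 1602 on LEN-GFP. SH3 minus SH1 was above 0 for 4 of the 7 tested markers and below 0 for 3, so the sum hides values in both directions. The ends of this range, named after their values were seen, were TCF4, a transcription factor of these cells, and IL3RA, the interleukin-3 receptor chain. TCF4 was at 7.60 on SH3 and 7.14 on SH1, against 7.14 on SCR and 7.22 on LEN-GFP (SH3 minus SH1 0.46, SE 0.14, limma adjusted p = 0.0916). IL3RA was at 8.31 on SH3 and 8.80 on SH1, against 8.55 on SCR and 8.56 on LEN-GFP (-0.50, SE 0.16, adjusted p = 0.108). The conventional dendritic cell markers (9 measured, 4 dim) summed to 7440 on SH3 and 6388 on SH1, and to 6228 on SCR and 6741 on LEN-GFP. This sum rests mostly on IRF8 and FLT3, with SH3 minus SH1 at 0.32 and -0.03. Of the 5 tested markers of this list 4 were above 0 and 1 below.

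Of 8 tested neutrophil markers 4 were called lower with SH3 than with SH1 and 0 higher, where 4.48% of all tested genes were called lower and 4.01% higher. The summed intensity of 9 measured neutrophil markers, 1 of them dim, was 16565 on SH3 and 28455 on SH1, against 30008 on SCR and 28100 on LEN-GFP. The 4 called were ELANE, MPO, PRTN3 and MMP8, which encode proteases and the peroxidase of granules, at log2 differences of -1.35, -0.99, -0.93 and -3.27 (largest limma adjusted p of the 4, 0.00881). CAMP, which encodes the granule peptide cathelicidin, had its highest value on SH3 (SH3 minus SH1 0.44, SE 0.16, adjusted p = 0.153). CSF3R (0.22) and CXCR2 (0.03) were above 0 as well, so SH3 minus SH1 was above 0 for 3 of the 8 tested neutrophil markers and below 0 for 5. MMP8 was at 8.27 on SH3 and 11.53 on SH1, and its controls lay apart, at 11.84 on SCR and 10.29 on LEN-GFP. The summed monocyte markers, which rest mostly on very bright genes such as LYZ, were at 73919 on SH3 and 74548 on SH1, and at 76166 on SCR and 73511 on LEN-GFP. Of the 10, 2 were called between the hairpins, in opposite directions. CSF1R, a growth factor receptor of monocytes and macrophages, was lower on SH3 (9.17) than on SH1 (9.92), against 8.89 on SCR and 9.04 on LEN-GFP (SH3 minus SH1 -0.75, SE 0.17, limma adjusted p = 0.0272). CD86, a costimulatory ligand, was higher on SH3 (12.20) than on SH1 (11.65), against 11.70 on SCR and 11.60 on LEN-GFP (0.55, SE 0.11, adjusted p = 0.0209). The lymphoid markers summed to 4804 on SH3 and 5101 on SH1, and to 5685 on SCR and 5749 on LEN-GFP. This sum rests mostly on NKG7, at 11.71 on SH3 and 11.78 on SH1, against 12.09 on SCR and 12.02 on LEN-GFP. Of the 4 tested lymphoid markers only NKG7 had both hairpins below both controls, and 0 had both above. Over all tested genes 19.0% lay below and 18.2% above, so nothing is read from this count. Their median difference between hairpins and controls was -0.04. What part a change in the kind of cell has in the receptor values was not tested.

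The adaptors of these receptors were measured next. FCER1G, the gamma chain used by CLEC4C, CLEC4D, CLEC4E and CLEC6A, was at 12.93 on SH3 and 12.57 on SH1, against 12.64 on both SCR and LEN-GFP. It did not pass between hairpins and controls (0.10, SE 0.13, limma adjusted p = 0.892), and was called higher with SH3 than with SH1 (0.36, SE 0.09, limma adjusted p = 0.0440). That call was lost with median centring, with no dim filter and with no intensity trend (adjusted p from 0.0625 to 0.180). TYROBP, or DAP12, the adaptor of CLEC5A, was at 13.12 on SH3 and 13.30 on SH1, against 13.39 on SCR and 12.88 on LEN-GFP (0.08, SE 0.18, adjusted p = 0.945). HCST, or DAP10, differed by 0.0013 (SE 0.22, adjusted p = 0.999).

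In the kinases and the CARD9 module no gene passed between hairpins and controls. Of 7 kinases 6 could be tested, 0 were called in either direction, and 4 had both hairpins above both controls, where 18.2% of all tested genes did so and 19.0% lay below. Their median difference was 0.19. SYK, the kinase that binds the phosphorylated tyrosine motif, was at 10.97 on SH3 and 11.01 on SH1, against 10.95 on both controls (0.04, SE 0.10, limma adjusted p = 0.944). The Src family kinase FGR had the largest difference of the 6 (0.58, SE 0.12, adjusted p = 0.797), and is named here after its values were seen.

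Of 12 genes of the CARD9 module 10 could be tested, 0 were called, 4 had both hairpins above both controls and 1 below (18.2% and 19.0% of all tested genes), and the median was 0.12. CARD9 itself had no probe set under its symbol alone and is not analysed here. BCL10, the filament-forming scaffold, differed by 0.16 (SE 0.12, limma adjusted p = 0.830). MALT1, the protease of the same complex, was at 10.25 on SH3 and 9.79 on SH1, against 9.56 on SCR and 9.70 on LEN-GFP (0.38, SE 0.19, adjusted p = 0.797). PLCG2, the phospholipase below SYK, differed by 0.09 (SE 0.05, adjusted p = 0.801) on its brightest probe set and by 0.38 on its other one. Between the hairpins 2 of the 10 were called, both higher with SH3, as 4.01% of all tested genes were. These were PRKCD and VAV3, a kinase and an exchange factor of this pathway, with SH3 minus SH1 at 0.54 and 0.68 (limma adjusted p = 0.0352 and 0.0287).

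The phosphatases of the inhibitory receptors gave no call either, and for each of the 3 the groups overlapped. PTPN6, or SHP-1, was at 11.94 on SH3 and 11.63 on SH1, against 11.51 on SCR and 11.82 on LEN-GFP (0.12, SE 0.16, limma adjusted p = 0.900). PTPN11, or SHP-2, differed by 0.04 (SE 0.10, adjusted p = 0.956) and INPP5D, or SHIP-1, by 0.07 (SE 0.12, adjusted p = 0.910).

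Of 14 cytokine and other genes that activating lectin receptors can induce, 13 could be measured and 9 tested, with 0 called between hairpins and controls and a median of 0.08. Between the hairpins 2 of the 9 were called, both higher with SH3, as 4.01% of all tested genes were. IL1B, the interleukin-1 beta gene, was at 9.98 on SH3 and 7.95 on SH1, against 7.93 on SCR and 8.14 on LEN-GFP (SH3 minus SH1 2.03, SE 0.18, limma adjusted p = 7.81e-04). PTGS2, the inducible cyclooxygenase, was at 9.94 on SH3 and 8.12 on SH1, against 8.58 on SCR and 8.34 on LEN-GFP (1.83, SE 0.18, adjusted p = 0.00122). Both are higher on SH3 than on the other arrays, as CLEC4C and CLEC5A are, and whether this bears on the receptors was not tested.

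**Figure D3:**
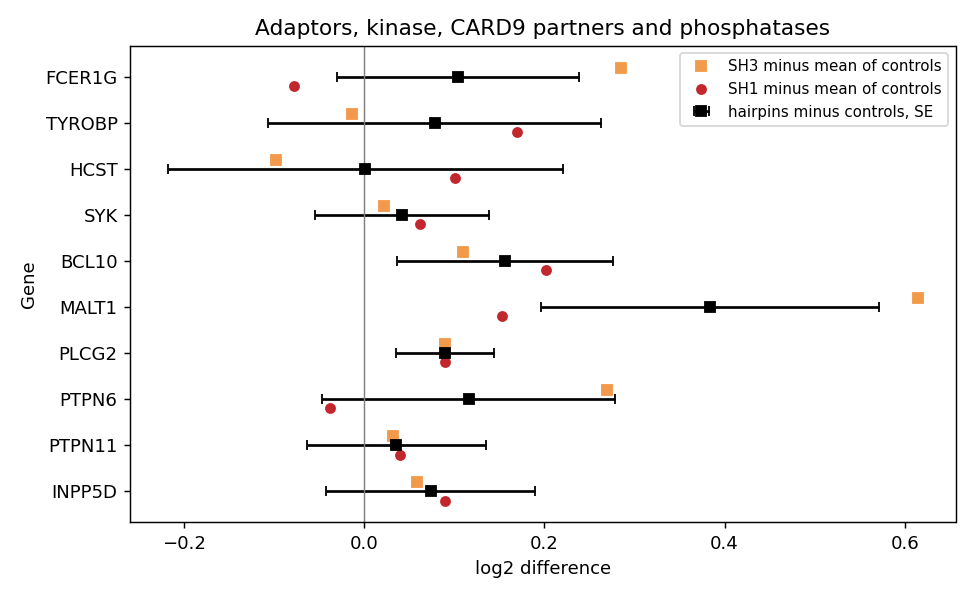
log2 difference (x axis) of the adaptors FCER1G, TYROBP and HCST, the kinase SYK, 3 partners of CARD9 and 3 phosphatases (y axis), as hairpins minus controls with its SE (black) and for SH3 (orange) and SH1 (red) each minus the mean of the controls. The black points lie between 0.0013 for HCST and 0.38 for MALT1.

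Of the 10 receptor genes, 8 lie on chromosome 12 among the lectin genes of the natural killer complex, CLEC5A on chromosome 7 and CLEC10A on chromosome 17. Neighbours were taken from the gene order of RefSeq (GRCh38.p14) among protein-coding genes with a probe set. CLEC4A lies between NECAP1, an endocytosis gene, and ZNF705A. NECAP1 was at 10.60 on SH3 and 10.33 on SH1, against 10.24 on SCR and 10.29 on LEN-GFP (0.20, SE 0.14, limma adjusted p = 0.817), and ZNF705A was dim. CLEC4C lies between DPPA3 and NANOGNB, both dim. Farther off, between CLEC4C and CLEC4A, SLC2A3 was 1.18 above the mean of the controls on SH3 and 0.38 on SH1. It is named here after its values were seen. From DPPA3 to KLRC1, 26 genes were tested, of which 11 had both hairpins above both controls and 3 below. Over all tested genes 18.2% lay above and 19.0% below. The receptors chosen by this contrast are among the 26, so nothing is read from the count.

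CLEC7A lies between CLEC1A, which was dim, and OLR1, the receptor for oxidised low-density lipoprotein. OLR1 was at 8.83 on SH3 and 8.52 on SH1, against 8.86 on SCR and 9.59 on LEN-GFP. Both hairpins lay below both controls, though SH3 and SCR were within 0.03 of each other, with a difference of -0.55 (SE 0.28, limma adjusted p = 0.797). CLEC12A has CLEC2A and CLEC1B beside it, and CLEC12B has CLEC1B and CLEC9A. CLEC1B differed by -0.04 and CLEC9A by 0.03 between hairpins and controls, while CLEC2A was called lower with SH3 than with SH1 (-0.66, SE 0.16, adjusted p = 0.0419). CLEC5A lies between the dim genes OR9A4 and TAS2R38. CLEC10A lies between BCL6B, which was dim, and ASGR2, a subunit of the asialoglycoprotein receptor (0.12, SE 0.16, adjusted p = 0.899).

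Of 19 other lectin genes of that complex 16 could be measured and 10 tested. limma called 0 of them between hairpins and controls, 3 had both hairpins above both controls (CD69, CLEC9A and KLRG1), 2 below (KLRF1 and OLR1), where 18.2% of all tested genes lay above and 19.0% below, and the median was -0.03. CLEC2B and CLEC2D differed by 0.09 and -0.03. Their differences ran from -0.55 for OLR1 to 0.27 for CD69. CD69 was called higher with SH3 than with SH1 (0.49, SE 0.12, adjusted p = 0.0466). Of 34 C-type lectin genes elsewhere in the genome 14 could be tested, 0 were called, 3 lay above and 3 below, beside the same shares of all tested genes, and their median was 0.01.

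**Figure D4:**
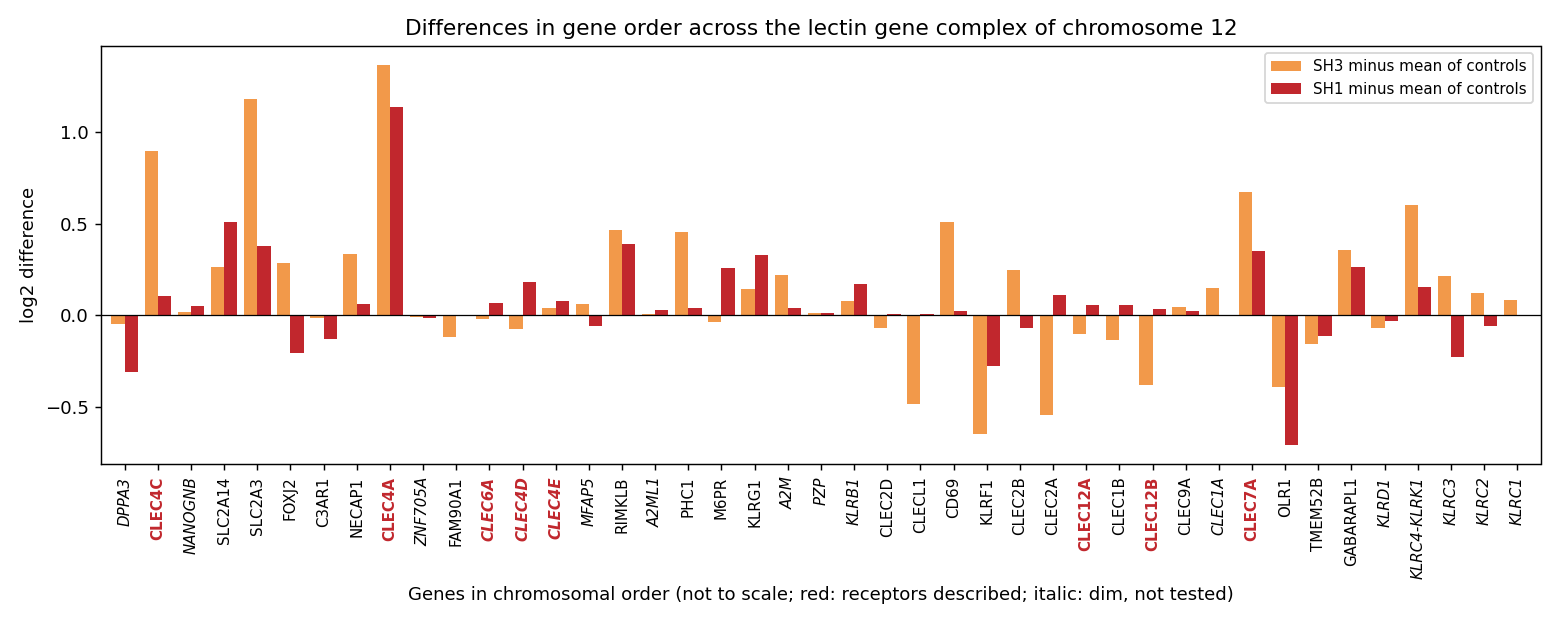
log2 difference from the mean of the controls (y axis) for SH3 (orange) and SH1 (red) in the order of the genes along chromosome 12 (x axis, not to scale), with the 8 receptors described in red letters and dim genes in italics. CLEC4A has the tallest pair of bars, at 1.37 for SH3 and 1.14 for SH1, and NECAP1 beside it reaches 0.33 for SH3. SLC2A3, between CLEC4C and CLEC4A, reaches 1.18 for SH3 and 0.38 for SH1.

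The genes with values most like those of CLEC4A were found by the Euclidean distance between log2 values centred on each gene's mean, over the 4 arrays and 12891 other tested genes. The closest was DTX4, a Deltex-type ubiquitin ligase, at a distance of 0.265, with 9.99 on SH3 and 9.66 on SH1, against 8.74 on SCR and 8.91 on LEN-GFP. CHI3L1, a secreted chitinase-like protein, followed at 0.308, then KIAA0513 at 0.350, ADGRE4P, a pseudogene of an adhesion receptor, at 0.360, and SCIMP, a transmembrane adaptor, at 0.416. Their differences between hairpins and controls lay between 0.96 for KIAA0513 and 1.07 for CHI3L1, below the 1.25 of CLEC4A.

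Of the other receptors CLEC7A was the closest to CLEC4A by this measure. CLEC7A, at a distance of 0.804, held place 188 of 12891, and CLEC4C, at 0.871, place 308. The distance includes the contrast that chose the receptors, so these places partly restate it and carry no test. In that contrast 241 tested genes had a larger difference than CLEC7A, and 251 a larger one than CLEC4C. CLEC12A, CLEC5A and CLEC12B were at 1.31, 1.42 and 1.50.

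**Figure D5:**
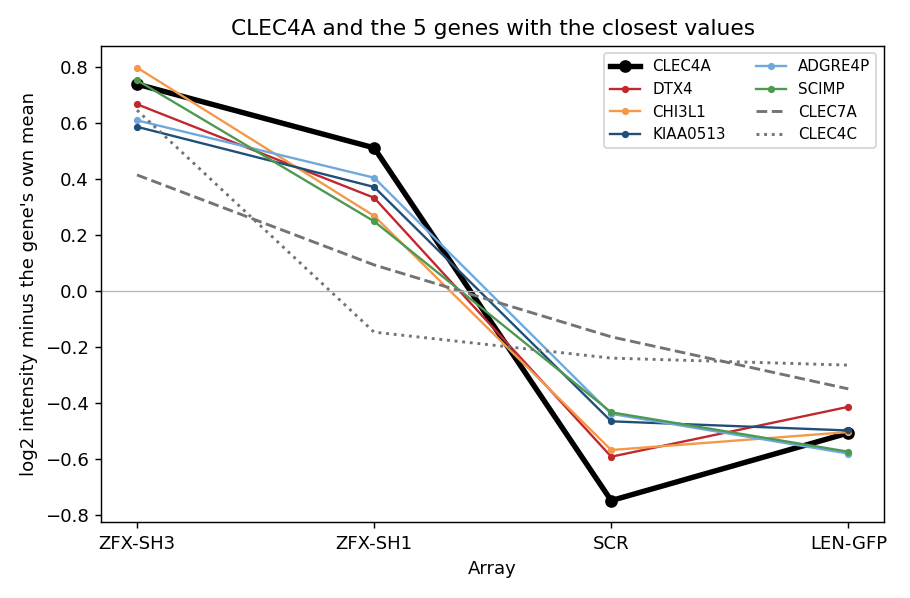
log2 intensity minus the gene's own mean (y axis) on the 4 arrays (x axis) for CLEC4A (thick black), the 5 genes closest to it (coloured) and the receptors CLEC7A (dashed) and CLEC4C (dotted). CLEC4A and the 5 genes are high on both hairpin arrays and low on both controls, while CLEC4C is high on SH3 alone.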

How the data were processed

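The authors deposited 1 table with a linear intensity per probe set and array. Affymetrix Expression Console 1.1 and RMA are named in the submitters' processing notes, while the step from RMA's log2 values to linear intensities is not stated there. The sorted values of SCR, SH1 and SH3 differ from those of LEN-GFP by at most 0.09 on the log2 scale, so a change in total RNA is not visible. Per the labels, 200 ng of total RNA was labelled. No detection call was used here, and the number of arrays limits the precision. All 4 columns of values were used.

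The log2 of each intensity was taken without an offset. Of 33297 probe sets, 19460 had 1 symbol in the platform annotation, 1754 several and 12083 none, and of the first 19429 had an entry in RefSeq. The probe set with the highest mean stood for its gene (18417 genes). The 30% with the lowest mean (5525 genes) were left out and 12892 tested with limma 3.58.1 in R 4.3.3 (intensity trend, two-sided, Benjamini-Hochberg adjustment over all genes, threshold 0.05). SEs of dim receptors come from the same fit with no filter. The steps were tested on simulated data.

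The receptors, 12 lists of partner and marker genes and the rule for names (all receptors, ZFX, fixed partners, neighbours, the 5 genes most like CLEC4A, and genes called by limma) were chosen with earlier results of these data known. The motifs were added later. A neighbour is the nearest protein-coding gene by start, for receptors not next to another receptor. Alternatives were the offset, quantile normalization, median centring, the mean of probe sets, other dim filters, no trend and leaving out each array.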

Additional observations from a re-analysis of the deposited data

Results flagged for a closer look

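CLEC4C and CLEC5A were marked because the effects of the hairpins differed by a test of the difference itself. SH3 minus SH1 was 0.79 on the log2 scale for CLEC4C (limma adjusted p = 0.0207) and 0.72 for CLEC5A (adjusted p = 0.0453). For CLEC4C both hairpins lay above the mean of the controls, by 0.90 for SH3 and 0.11 for SH1. For CLEC5A they lay on either side of it, at 0.23 for SH3 and -0.49 for SH1. Each hairpin has 1 array, so hairpin and array cannot be told apart. Of the listed partner and marker genes, IL1B, PTGS2, FCER1G, CD86, PRKCD, VAV3 and CD69 were also called higher with SH3. CSF1R, CLEC2A and 4 of 8 tested neutrophil markers were called lower, while 3 of these 8 were above 0. Over all tested genes 4.01% were called higher and 4.48% lower. What part these genes have in the values of CLEC4C and CLEC5A was not tested.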

How the results depend on the processing

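Between hairpins and controls limma called 0 genes under each of 7 other settings, and from 0 to 1698 with 1 array left out (1698 without SH1, 54 without SH3). With a lone hairpin array, its spread is assumed to be that of the controls. CLEC4A differed by 1.21 to 1.26 under 4 other settings and by 1.13 to 1.37 with 1 array left out. No receptor changed sign under those 4 settings. With 1 array left out CLEC4D, CLEC5A, CLEC6A, CLEC12A and CLEC12B changed sign, CLEC4C lay between 0.11 and 0.90, and CLEC7A between 0.35 and 0.67. Tested receptors with both hairpins above both controls numbered 2 to 4 over all alternatives, 3 as reported. The count between SH3 and SH1 was 1095, 688 with median centring and 794 to 1460 under the other 6 settings. CLEC4C was called in all 8. CLEC5A was not called with median centring (adjusted p = 0.0830) or with no dim filter (0.0720), and FCER1G was not with median centring (0.0625), no dim filter (0.0662) or no intensity trend (0.180). The cause was not tested. SCR and LEN-GFP gave 0 calls in each setting. The spread in that fit came from the wider hairpin pair, so this does not show that the controls were alike. No paired analysis was possible because the replicate numbers only name the arrays. With 2 arrays a group and 1 per construct, the spread between these arrays may be technical. The limma p-values rest on that spread and on the spread shared over all tested genes. For SH3 minus SH1 the hairpin arrays themselves gave no residual spread.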
